A study of Mus musculus with 9 samples.

Results

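The sodium pump (Na,K-ATPase) and its FXYD regulators were examined in fetal mouse ventricle through 7 genes, the beta subunit genes Atp1b1, Atp1b2 and Atp1b3 and the regulator genes Fxyd1, Fxyd5, Fxyd6 and Fxyd7. They were taken as every probe set that the platform annotation assigns to one of these symbols, which gave 12 of the 45101 probe sets on the array and 7 of 18193 named genes. Ventricles came from male fetuses at E18.5, shortly before birth, that carried no intact copy of Esrrg (-/-, KO), 1 copy (+/-, HET) or both copies (+/+, WT). Esrrg encodes estrogen-related receptor gamma (ERRγ, ERRg in the labels), a nuclear receptor known to bind many genes of energy metabolism. Each genotype had 3 Affymetrix arrays, described as biological replicates. The labels leave it unsettled whether each array was made from a single ventricle sample or from 3 pooled ones, so the spread measured is that between arrays. They give neither the strain nor the design of the allele. The comparisons ask whether pump and FXYD transcripts differ when ERRγ is lost, or when 1 copy is lost.

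The pump moves sodium out of the cell and potassium in at the expense of ATP. Its alpha subunit carries out the transport, and its beta subunit, a glycoprotein that spans the membrane once, is needed to fold the alpha subunit and bring it to the surface. FXYD proteins are small membrane proteins, named after a conserved motif, that sit beside the pump and tune its affinity for ions. In cardiac muscle the main one is phospholemman, the product of Fxyd1, which holds the pump back until it is phosphorylated, and the sodium gradient that the pump keeps up drives calcium out through the sodium-calcium exchanger. The alpha subunits of ventricular muscle were not analysed here.

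The targeted gene followed the labels. The brightest Esrrg probe set read 58.3, 58.1 and 39.3 in KO, 162, 164 and 162 in HET, and 281, 213 and 206 in WT (MAS5 signal, a linear intensity scaled per array by the submitters). The genotypes did not overlap there. In the 2 dimmer Esrrg probe sets, at 10.2 to 79.8 over all arrays, KO and WT overlapped. Array medians were between 36.6 and 45.9. The 9 arrays fell into 2 groups by the ratio of the poly-A spike-in controls thr to dap, called array batches here although no date or run is given. The second batch held the 3 KO arrays and HET replicates 2 and 3, with log2 ratios of -1.67 to -1.54, and the first held HET replicate 1 and the 3 WT arrays, at -1.40 to -1.22. KO and WT thus share no batch, and their difference cannot be told apart from that of the batches except through the HET arrays. The division, at a gap of 0.13, was not a wide one. WT replicate 2, at -1.40, lay between KO replicate 3, at -1.54, and HET replicate 1, at -1.29. Correlations between arrays followed it in part. HET replicates 2 and 3 had 0.976 to 0.979 with the KO arrays, against 0.968 and 0.969 with HET replicate 1, as the batches divide them. By contrast WT replicates 1 and 2 had 0.971 and 0.972 with HET replicate 1, against 0.973 to 0.974 with the KO arrays. For WT replicate 3 these were 0.966 and 0.965 to 0.966.

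No member passed the test in any genotype comparison, and Fxyd1 came nearest, with a KO level at 80.0% of the WT mean. Of the 7 genes, 6 passed a filter on dim genes (a mean log2(signal + 16) at or above 5.24, a signal of 21.7) and were tested. Fxyd7 did not pass it. Limma's moderated test, two-sided, with Benjamini-Hochberg adjustment over all 13028 genes tested, called 0 of 6 members between KO and WT, where it called 1.62% of all genes. It called 0 of 6 between HET and WT (0% of all genes) and 0 of 6 between KO and HET (0.0154% of all genes). At an unadjusted p under 0.05 the members numbered 1 of 6 between KO and WT (17.2% of all genes), 1 of 6 between HET and WT (11.5%) and 0 of 6 between KO and HET (4.81%). By sign alone 5 of 6 were lower in KO than in WT (51.6% of all genes), 5 of 6 lower in HET than in WT (50.9%) and 4 of 6 lower in KO than in HET (51.7%). The median log2 difference of the 6 was -0.09 for KO minus WT, -0.08 for HET minus WT and -0.02 for KO minus HET, against a median of -0.0092, -0.0055 and -0.0077 over all genes. The KO minus WT and HET minus WT values share the WT arrays.

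**Figure D1:**
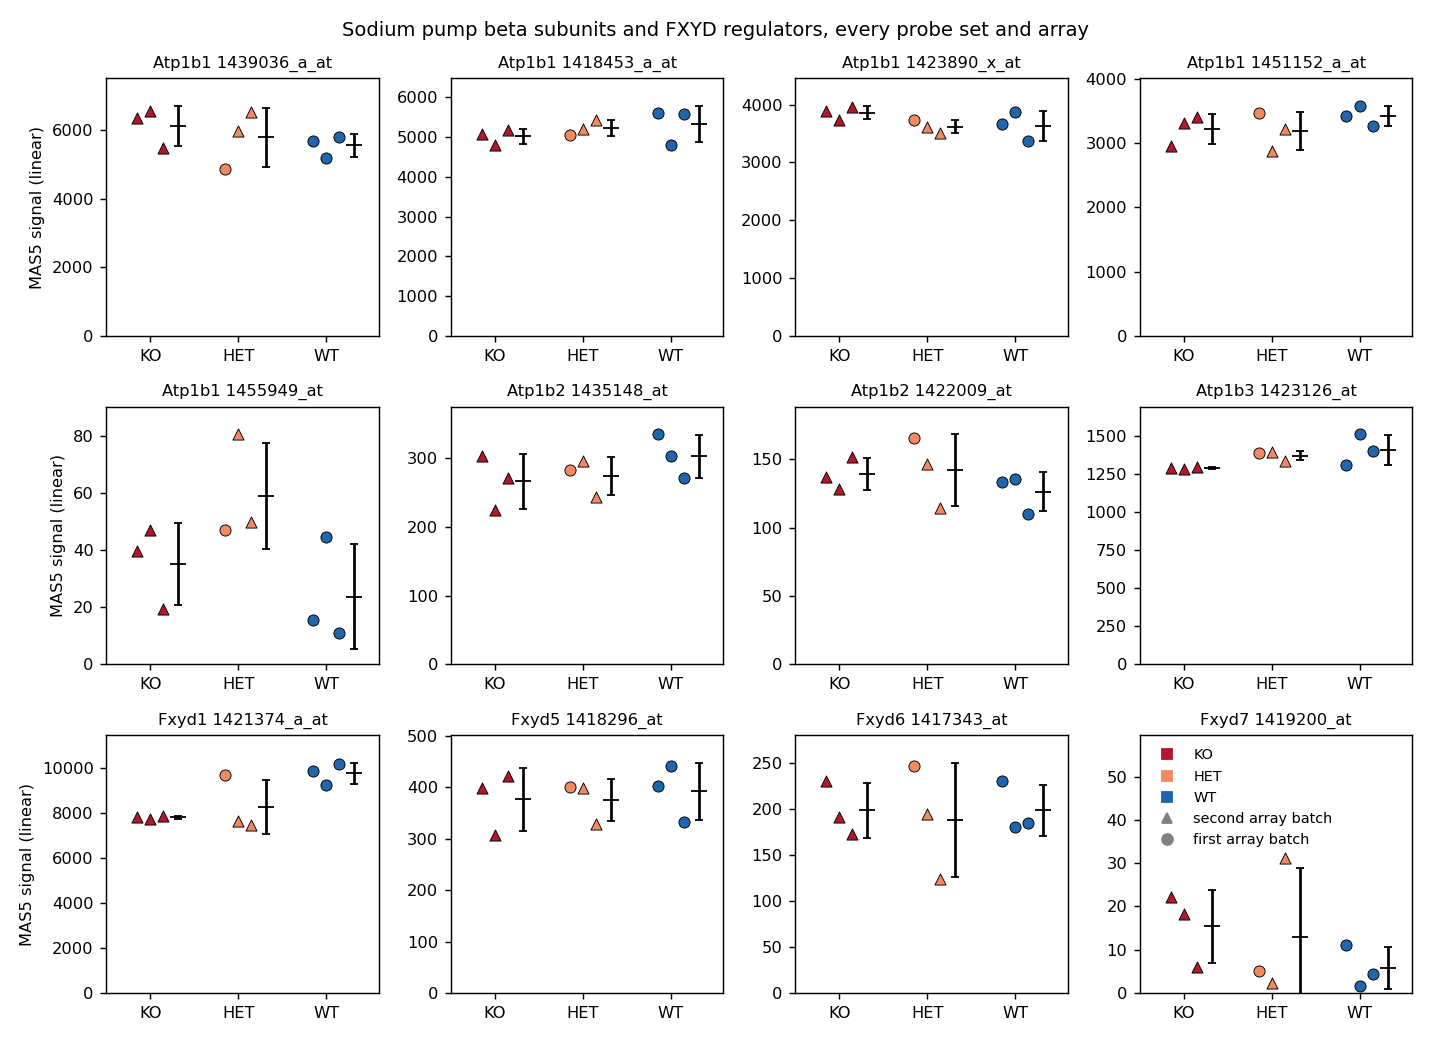
MAS5 signal (y axis, linear, from 0) of each of the 12 member probe sets on every array, for KO, HET and WT. Triangles are arrays of the second array batch and circles those of the first, and the bar beside each group is mean ± SD (n = 3), cut off at 0 for Fxyd7. In the Fxyd1 panel HET replicate 1 stands at 9667 with the WT arrays, and HET replicates 2 and 3 stand with the KO arrays.

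Fxyd1, phospholemman, had one probe set, which was bright on every array. It read 7801, 7748 and 7859.7 in KO ventricles, 9667, 7664 and 7472 in HET ventricles, and 9853, 9248 and 10166 in WT ventricles. All KO arrays lay below all WT arrays, as did those of 25.0% of all genes, one way or the other, and the HET arrays were divided, with replicate 1 at the WT level and replicates 2 and 3 below every KO array. The means were 7803 ± 55.8 in KO, 8267 ± 1216 in HET and 9756 ± 467 in WT (SD, n = 3 each). KO minus WT was -0.32 ± 0.08 on the log2(signal + 16) scale (limma SE), which missed the threshold (adjusted p = 0.0639). The 95% interval of the KO level ran from 70.9% to 90.5% of WT, and by p the gene stood at rank 283 of 13028. HET minus WT was -0.25 ± 0.08 (limma, adjusted p = 0.32). KO minus HET was -0.07 ± 0.08 (limma, adjusted p = 0.989), with an interval from 84.1% to 107% of the HET level.

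HET replicate 1 decided whether Fxyd1 was called. Without that array, whose distance from the other HET arrays widens the pooled spread, KO minus WT kept its value of -0.32 and passed (limma, adjusted p = 0.00202). So did 840 of 13028 genes, against 211 with all 9 arrays. HET minus WT without HET replicate 1 was -0.36 and passed as well (limma, adjusted p = 0.00265), as did 574 genes, against 0. With the 6 KO and WT arrays alone Fxyd1 also passed (limma, adjusted p = 0.00363), as did 773 genes. Without HET replicate 1 all KO and HET arrays were of the second array batch and all WT arrays of the first. These differences from WT cannot then be told apart from that of the batches. Under the other settings tried Fxyd1 did not pass.

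Fxyd1 divided the arrays exactly as the spike-in controls did. The 5 arrays of the second batch ranged from 7472 to 7859.7 and averaged 7709 ± 151, while the 4 of the first ranged from 9248 to 10166 and averaged 9734 ± 384 (SD over arrays of mixed genotype). Of all genes tested, 13.0% separated the batches without overlap. Within the second batch, KO minus HET was 0.04 on the log2 scale. Within the first, HET minus WT was -0.01. HET replicates 2 and 3 stood apart from HET replicate 1 by -0.35, a difference within 1 genotype as large as that between KO and WT. With the array batch as a block in the fit, which rests on that single HET array, KO minus WT was 0.03 ± 0.09 (limma, adjusted p = 0.975). HET replicates 2 and 3, in the batch of the KO arrays and with 1 Esrrg copy intact, read 7664 and 7472, below every KO array. With a single HET array in the first batch, genotype and batch cannot be told apart in these values, and the cause was not tested.

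**Figure D2:**
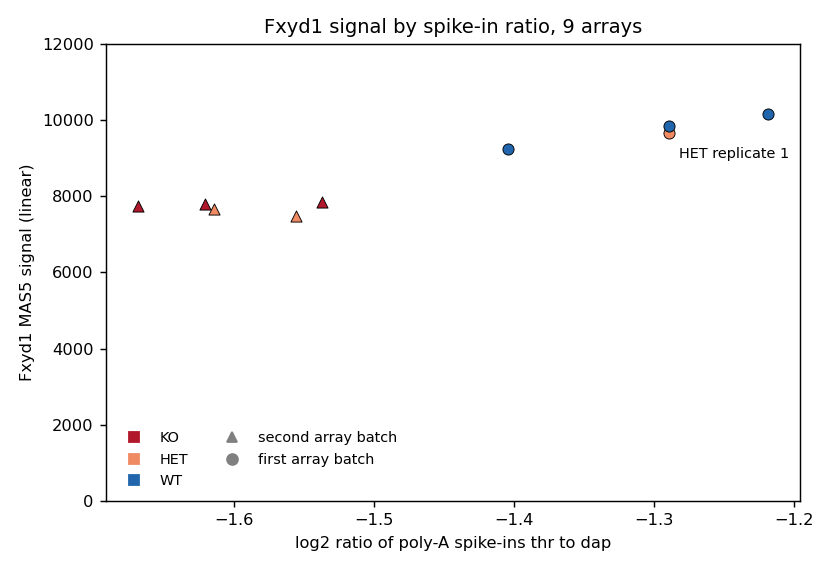
Fxyd1 MAS5 signal (y axis, linear, from 0) against the log2 ratio of the poly-A spike-ins thr to dap (x axis), 1 point per array, coloured by genotype, with triangles for the second and circles for the first array batch. The second batch, 3 KO and 2 HET arrays, spans 7472 to 7859.7, and the first, 1 HET and 3 WT arrays, spans 9248 to 10166.

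Markers of ventricular cardiomyocytes, where phospholemman is made, were summed beside Fxyd1. The summed signal of the 9 markers, all of them tested, was 165018 to 181812 in KO, 166678 to 188469 in HET and 184798 to 198210.02 in WT. These KO and WT sums did not overlap, nor did KO and WT in 25.0% of all genes taken singly. HET replicate 1 had 188469 against 175113 and 166678 in the other two HET arrays, the same order as for Fxyd1. Of the 9 markers 7 were lower in KO, with a median log2 difference of -0.17, 2 were higher (Myh6 and Ryr2), and none was called. With the array batch as a block 4 of the 9 were lower, the median was 0.0064 and none was called. In tissue RNA, fewer cells of a type and less RNA per cell cannot be told apart. The part of these markers in the Fxyd1 values was not tested.

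The RefSeq promoter table (GRCm38.p6) held 6 windows for 5 of the 7 members, each of 300 bases, with 250 before and 50 from the annotated start. Since ERRγ acts by binding DNA, the windows were searched on both strands for the ERR response element, TNAAGGTCA. None of the 6 held it, and 1.28% of all 32851 windows did. This says only that these letters are not in these windows. The promoter of Fxyd1, the member with the largest KO minus WT difference among those tested, is shown from 250 bases upstream to the first transcribed base, which is in capitals (minus strand, chr7:31054853-31055103, GRCm38.p6, 5′ to 3′).
Fxyd1 promoter: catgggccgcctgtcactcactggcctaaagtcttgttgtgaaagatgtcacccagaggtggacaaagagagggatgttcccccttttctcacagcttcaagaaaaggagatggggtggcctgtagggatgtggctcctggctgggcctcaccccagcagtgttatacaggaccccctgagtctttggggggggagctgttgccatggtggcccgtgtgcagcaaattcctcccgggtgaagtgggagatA

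Fxyd1, Fxyd5 and Fxyd7 are neighbours on chromosome 7, where Fxyd7 stands between the other two with no protein-coding gene between them in the RefSeq gene table. Fxyd5 encodes dysadherin, a regulator known from epithelia for its effect on cell adhesion. It read 400, 308 and 422 in KO, 401, 399 and 329 in HET, and 402, 442 and 333 in WT, so every genotype had 1 array at 333 or below and the groups overlapped fully. Its KO minus WT difference was -0.06 ± 0.15 (limma, adjusted p = 0.879), with an interval of 77.4% to 119% of WT. HET minus WT was -0.05 ± 0.15 and KO minus HET -0.0057 ± 0.15.

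Fxyd7, a regulator known from brain, was near the bottom of the scale. It read 22.1, 18.1 and 5.92 in KO, 5.11, 2.35 and 31.3 in HET, and 11.2, 1.68 and 4.27 in WT. The highest and the lowest values both lay among arrays that carry an intact copy, and no test was made at this level. Whether its transcript was present cannot be read from these signals, since detection calls were not used here.

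Fxyd6, on chromosome 9 beside Fxyd2, encodes phosphohippolin, a regulator also known from the nervous system. It read 231, 192 and 173 in KO, 247, 195 and 124 in HET, and 231, 181 and 185 in WT. The HET arrays alone spanned the whole range, and KO and WT had almost the same mean, 199 ± 29.7 and 199 ± 27.7 (SD, n = 3 each). KO minus WT was -0.0027 ± 0.20 (limma, adjusted p = 0.998). Its interval, 73.8% to 135% of WT, was the widest of the 6 members tested. With the array batch as a block the difference became 0.61 ± 0.32 without being called (limma, adjusted p = 0.827), the sum of a KO minus HET difference of 0.31 in the second batch and a HET minus WT difference of 0.30 in the first.

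Atp1b1 encodes the beta subunit that most tissues, heart included, pair with the pump's catalytic subunit. The platform gives it 5 probe sets, of which 2 (1423890_x_at and 1451152_a_at) cite the same transcript record, so they are not independent. Its brightest, 1439036_a_at, read 6349 in KO replicate 1, 6574 in replicate 2 and 5481 in replicate 3. The HET arrays of this probe set read 4863, 5982 and 6539, and the WT arrays 5692, 5182 and 5811. KO averaged 6135 ± 577 and WT 5561 ± 334 (SD, n = 3 each), with overlapping arrays and a log2 difference of 0.14 ± 0.10 (limma, adjusted p = 0.512). The interval was 95.3% to 127% of WT. This probe set also gave 0.05 ± 0.10 for HET minus WT and 0.09 ± 0.10 for KO minus HET, and its KO minus WT value was -0.22 with the array batch as a block, the HET array of the first batch being its lowest of 9.

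The other bright Atp1b1 probe sets did not share a direction. Between KO and WT, 1418453_a_at differed by -0.08 ± 0.07, with means of 5015 ± 192 in KO and 5327 ± 449 in WT. The set 1451152_a_at differed by -0.09 ± 0.08, with 3224 ± 234 in KO and 3420 ± 156 in WT. By contrast 1423890_x_at differed by 0.09 ± 0.07, with 3863 ± 113 in KO and 3635 ± 255 in WT, although it cites the same record as 1451152_a_at. In a fit over the 27022 probe sets that passed the filter, none of these was called (limma, adjusted p = 0.646, 0.689 and 0.611), where 0.633% of probe sets were. Of the 11 member probe sets in that fit none was called in any comparison (0% of probe sets between HET and WT and 0.00740% between KO and HET). Each of the 4 bright Atp1b1 probe sets had a 95% interval that took in no difference, and the widest limits among them were -0.27 and 0.35 on the log2 scale.

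The dim Atp1b1 probe set 1455949_at stood apart from the rest. It read 39.6, 47.1 and 19.4 in KO, 47.2, 80.6 and 49.9 in HET, and 15.5, 44.7 and 11.1 in WT. Its HET arrays lay above all KO arrays by a narrow margin and above all WT arrays. HET minus WT was 0.99 ± 0.38 at an unadjusted p of 0.0197, and it was not called (limma, adjusted p = 0.395). HET and WT did not overlap in 12.9% of all probe sets tested and HET and KO in 10.2%. The 4 bright probe sets gave -0.10 to 0.05 for the same comparison.

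**Figure D3:**
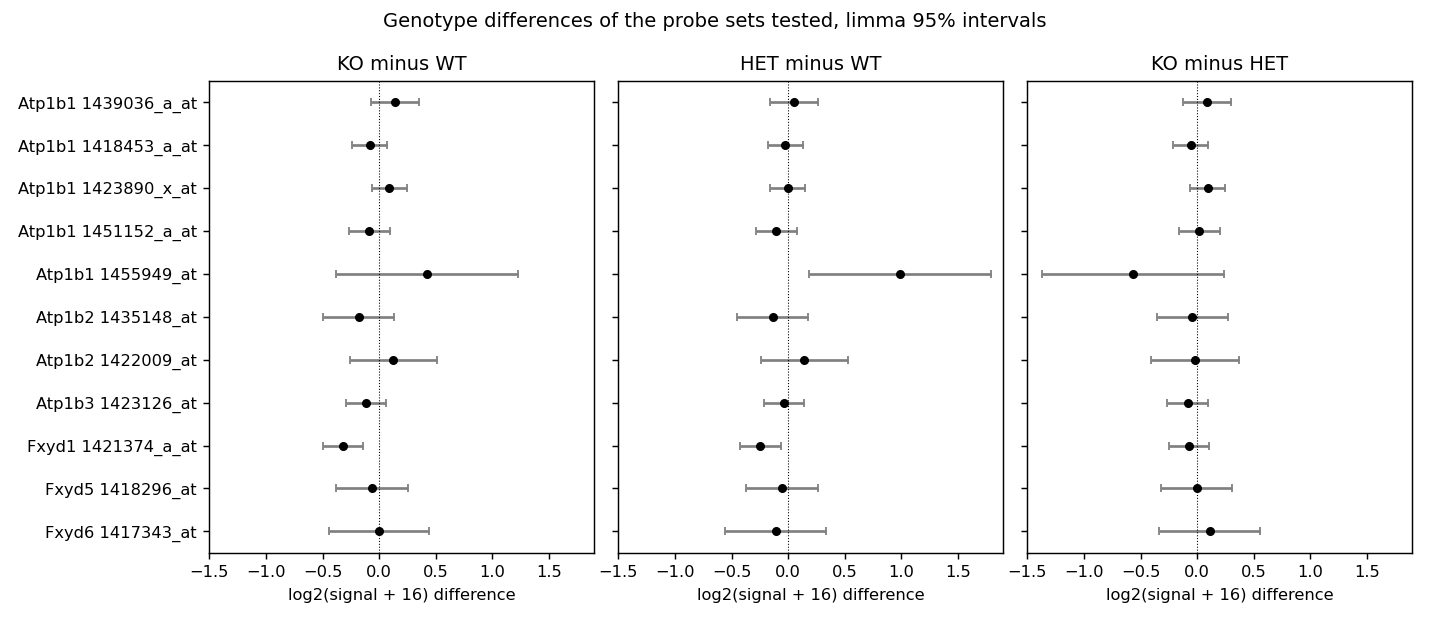
Log2(signal + 16) differences (x axis) of the 11 member probe sets tested, for KO minus WT, HET minus WT and KO minus HET, as points with limma 95% intervals, 1 row per probe set. The Fxyd1 interval lies below 0 in the KO minus WT and HET minus WT panels, and that of the dim Atp1b1 set 1455949_at above 0 for HET minus WT. The intervals are not adjusted for the number of probe sets.

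Taking all 11 member probe sets singly, 7 were lower in KO than in WT (47.8% of probe sets tested), 8 lower in HET than in WT (46.6%) and 7 lower in KO than in HET (51.4%). An unadjusted p under 0.05 was reached by 1 of 11 between KO and WT (15.7% of probe sets), 2 of 11 between HET and WT (10.7%) and 0 of 11 between KO and HET (4.35%). KO and WT did not overlap in 2 of 11 (23.0% of probe sets), HET and WT in 1 of 11 (12.9%) and KO and HET in 3 of 11 (10.2%).

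Atp1b2 encodes the beta subunit first described as an adhesion molecule of glia. Its brighter probe set, 1435148_at, read 304, 224 and 272 in KO, 283 (replicate 1), 296 and 243 in HET, and 335, 303 and 272 in WT. The groups overlapped, and KO minus WT was -0.18 ± 0.14 (limma, adjusted p = 0.568), with an interval of 71.4% to 109% of WT. The dimmer set, 1422009_at, pointed the other way, with 139 ± 11.7 in KO, 142 ± 26.1 in HET and 126 ± 14.4 in WT, and a KO minus WT difference of 0.13 ± 0.18 (probe-set fit, limma adjusted p = 0.811). Neither differed beyond the spread between arrays in the HET comparisons, where the brighter set gave -0.14 ± 0.14 for HET minus WT and -0.04 ± 0.14 for KO minus HET.

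Atp1b3 encodes the third beta subunit, a broadly made one. It read 1289.8, 1286 and 1299.8 in KO, 1387, 1393 and 1337 in HET, and 1312, 1509.98 and 1399 in WT. All KO arrays lay below all HET and all WT arrays, by 12 units of signal or more. Of the 6 members tested, this gene and Fxyd1 had KO and WT arrays that did not overlap, against 25.0% of all genes, none had HET and WT arrays that did not overlap, against 13.7%, and this gene alone had KO and HET arrays that did not overlap, against 10.5%. The differences were small, at -0.12 ± 0.08 for KO minus WT (limma, adjusted p = 0.491) and -0.09 ± 0.08 for KO minus HET (limma, adjusted p = 0.989). The KO level had an interval of 81.7% to 104% of WT. Within the second array batch KO minus HET was -0.08 and within the first HET minus WT was -0.02, and with arrays shifted to one median KO minus HET was -0.0069.

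The other genes of both families that the platform names were dim. These were Fxyd2 with 4 probe sets and Fxyd3, Fxyd4, Atp1b4 and Atp1a4 with 1 each, and none of the 8 passed the filter. Fxyd2, known from the kidney tubule, spanned 1.56 to 56.4 over its 4 probe sets and all arrays. Fxyd3 spanned 1.66 to 53.6, Fxyd4 3.57 to 27.7 and Atp1b4 0.94 to 18.2. Atp1a4, which encodes an alpha subunit known from sperm, read 13.3, 13.2 and 5.60 in KO, 34.0, 13.0 and 23.0 in HET, and 37.7, 21.2 and 25.5 in WT, and was not tested at this level.

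Of 17 ion exchangers and cotransporters listed, most of them coupled to sodium, 10 were tested. Between KO and WT 1 fell and none rose, where 0.883% of all genes fell, and the one that fell is not coupled to sodium. At an unadjusted p under 0.05 the count was 2 of 10 (17.2% of all genes). Slc12a7, a potassium-chloride cotransporter, fell to 845, 873 and 833 in KO, against 1155, 1161 and 1139.8 in WT, and its HET arrays read 1064, 902 and 800.3. The KO minus WT difference was -0.43 ± 0.10 (limma, adjusted p = 0.047), and -0.11 ± 0.14 with the array batch as a block. As for Fxyd1, HET replicate 1 was the nearest of the HET arrays to WT. The next by p were Slc12a4, another potassium-chloride cotransporter (0.29 ± 0.13, limma adjusted p = 0.275), and Slc38a2, a sodium-coupled amino acid carrier (0.09 ± 0.06, limma adjusted p = 0.452). The sodium-calcium exchanger gene Slc8a1 averaged 930 ± 101 in KO and 1029.9 ± 86.4 in WT, with -0.15 ± 0.10 between them (limma, adjusted p = 0.515). It was added to those the rule names for its role beside the pump, after its values were seen. The list had 4 of 10 lower in KO and a median of 0.12, against -0.0092 over all genes.

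No scaffold, kinase or other partner of the pump was called among 17 tested of 22 listed, where 1.62% of all genes were, and at an unadjusted p under 0.05 the count was 0 as well (limma, 17.2% of all genes). The smallest p between KO and WT were those of the adducin gene Add1 (-0.18 ± 0.09, adjusted p = 0.308), the protein kinase C gene Prkce (0.37 ± 0.18, adjusted p = 0.324) and the kinase gene Src (-0.65 ± 0.33, adjusted p = 0.331). The median of the 17 was 0.0041, with 8 lower in KO. Between HET and WT, and between KO and HET, 0 members of either list were called. At an unadjusted p under 0.05 the HET minus WT counts were 3 of 10 exchangers and cotransporters and 2 of 17 partners (limma, 11.5% of all genes). The KO minus HET counts were 0 of 10 and 1 of 17 (limma, 4.81% of all genes).

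The genes whose pattern over the 9 arrays was most like that of Fxyd1, outside both families, were Ldhb, a lactate dehydrogenase gene (Pearson r = 0.988), Mrpl23, a mitochondrial ribosomal protein gene (0.987), and Psmd1, a proteasome subunit gene (0.985). These were picked as the highest of 13028 on log2(signal + 16), and are a description of arrays that share the batch division. Ldhb averaged 11747 ± 163 in KO, 12084 ± 738 in HET and 13199 ± 207 in WT (SD, n = 3 each). On HET replicate 1 it read 12936, against 11634 and 11684 on HET replicates 2 and 3. Mrpl23 likewise read 3408 on HET replicate 1, against 2730.1 and 2798 on the other two, with KO arrays between 2773 and 2928 and WT arrays between 3301 and 3568. Psmd1 read 2314 on HET replicate 1, against 1828 and 1889 on the other two. Its KO arrays lay between 1859.6 and 1929 and its WT arrays between 2232 and 2386. KO minus WT was -0.17, -0.27 and -0.29 for the 3 genes, none of them called (limma, adjusted p = 0.137, 0.111 and 0.105). With the array batch as a block it was -0.02, 0.03 and 0.03.

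**Figure D4:**
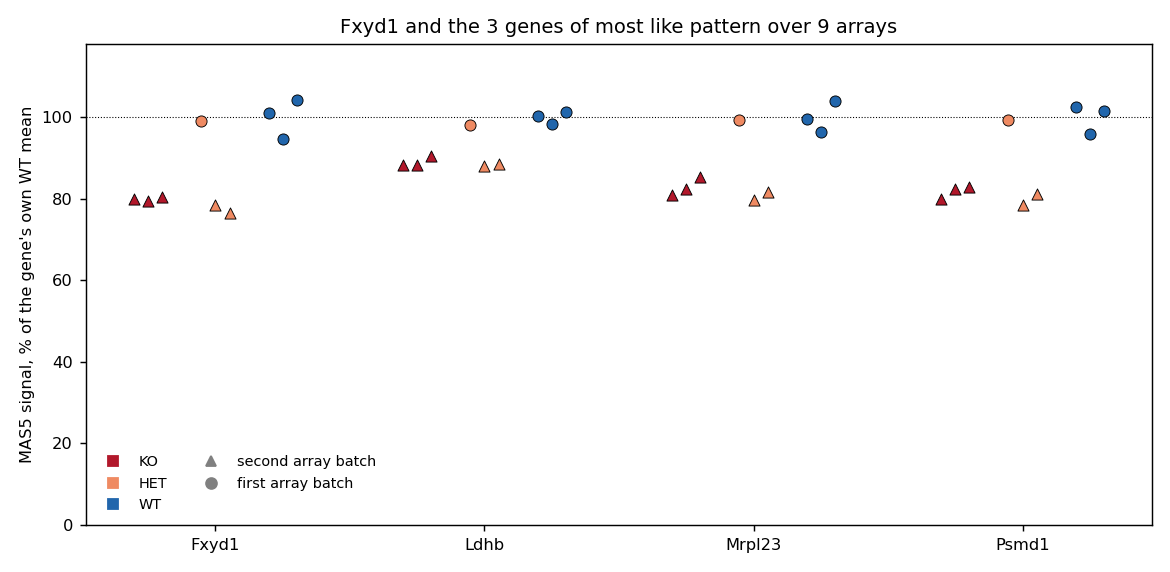
MAS5 signal of Fxyd1, Ldhb, Mrpl23 and Psmd1 on each array, as a percentage of the gene's own WT mean (y axis, from 0, dotted line at 100). Within each gene the groups run KO, HET, WT, with triangles for the second and circles for the first array batch. In each gene HET replicate 1 lies near 100 and HET replicates 2 and 3 lie with the KO arrays.

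Markers of other cell types were summed in the same way, since FXYD5 and the neural FXYD genes are known from cells other than myocytes. Among 6 endothelial markers 1 was called between KO and WT, where 1.62% of all genes were. It was the receptor gene Kdr, which fell by 0.74 ± 0.14 (limma, adjusted p = 0.0262), and by sign differed by -0.25 ± 0.19 once the array batch was blocked. Of the other endothelial markers Cdh5 (0.31) and Emcn (0.21) were higher in KO, and Pecam1 (-0.09), Tek (-0.03) and Tie1 (-0.03) were slightly lower. The endothelial sums were 3949 to 4328 in KO, 3825 to 4569 in HET and 4216 to 4595 in WT. The 6 fibroblast markers were each higher in KO by sign, with sums of 31038 to 32255 in KO, 27271 to 32087 in HET and 27319 to 30608 in WT. KO and WT did not overlap, nor did they in 25.0% of all genes taken singly, and none of the fibroblast markers was called. With the array batch as a block 0 of the 6 were lower, the median was 0.23 and none was called. The 5 atrial markers gave 18307 to 23368 in KO, 20009 to 22149.7 in HET and 18070.0 to 23375 in WT. The 6 epicardial ones gave 737 to 1319 in KO, 1164 to 1386 in HET and 773 to 1194 in WT, and the 6 of smooth muscle and pericytes 16025 to 18602 in KO, 15862 to 17485 in HET and 14501 to 16486 in WT. The 6 leukocyte markers gave 1071 to 1209.6 in KO, 1056 to 1280 in HET and 1075 to 1111 in WT, and the 2 of 6 erythroid markers tested 1302 to 1680.1 in KO, 913 to 1443 in HET and 1094 to 1659.8 in WT. Of 8 Schwann cell and neuron markers only Dbh and Sox10 were tested, with sums of 223 to 256 in KO, 189 to 215 in HET and 140 to 182 in WT. No genotypes overlapped in these sums. Of all genes taken singly, KO and WT did not overlap in 25.0%, HET and WT in 13.7% and KO and HET in 10.5%. Dbh, the brighter, gave a KO minus WT of 0.63 ± 0.19 (limma, adjusted p = 0.0983) and Sox10 0.24 ± 0.26. With the array batch as a block 0 of the 2 were lower and the median was 0.48. None of the lists other than the endothelial one held a called gene. The part of any of these in the Fxyd5, Fxyd6 or Fxyd7 values was not tested.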

How the data were processed

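Intensities were deposited as MAS5 signals, 1 linear value for each probe set, per the submitters' processing notes, which give no version. The mean of each array without its top and bottom 2% was 200.0 in the deposited intensity columns, so arrays were scaled to one level and not otherwise normalized between each other. Per the labels' protocols, 6 µg of total RNA was labelled with biotin.

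Gene names came from the platform annotation and were brought up to date with a RefSeq table (GRCm38.p6). Of 45037 probe sets other than controls, 34945 name 1 gene, 932 several and 9160 none. Symbols of 34741 were found by gene ID. Signals were turned to log2(signal + 16), a scale that understates how much a dim gene changes. Each gene was taken at its brightest probe set, and genes under the 40th percentile of probe sets were left out. The test was limma 3.58.1 under R 4.3.3 (1 mean per genotype, intensity trend, 9 arrays, 6 residual degrees of freedom, or 5 with the batch block), with calls at an adjusted p under 0.05. On simulated data with 200 of 13028 genes changed between KO and WT in 5 draws, 60.2% of the 2-fold changes were found, 29.4% of the 1.5-fold changes, and 18 genes in all were called falsely. The simulated noise was independent between genes and held no array batch, so these rates do not cover false calls from a batch. Alternatives were other normalizations, pseudocounts, filters and ways to join probe sets, fewer arrays, and blocks. To set the batch, arrays were ordered by the spike-in ratio (thr over dap, log2, 3 probe sets each) and divided where neighbours lay farthest apart (0.13). Every member was named, with the other genes of both families, up to 3 genes of each list by p, and the 3 genes most like the member nearest to a call. Members, lists, the batch and the tests were chosen with earlier results of these data known. Replicate numbers were not taken to pair the arrays, as deviations of same-numbered arrays correlated by -0.04 to 0.05. No such value is given for differently numbered arrays, so this does not settle whether the arrays were paired. Figures were drawn with matplotlib 3.10.9. Protein and probe sequences were not used here.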

Additional observations from a re-analysis of the deposited data

How the results depend on the processing

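No member was called in KO minus HET under any of the 20 alternatives. In KO minus WT 1 member, Fxyd1, was called with only the arrays compared and without HET replicate 1. In HET minus WT 1 member, Fxyd1 again, was called without HET replicate 1. Leaving out each array in turn gave 0 to 1 members called in KO minus WT and in HET minus WT. Over all genes, the KO minus WT count of 211 became 24 with arrays shifted to one median, 85 with no filter, 7 with the mean of probe sets, 773 with only the arrays compared, 127 with the replicate block, 1 with the array batch block, and 10 to 840 with each array left out (840 without HET replicate 1). The HET minus WT count of 0 became 1 with the replicate block, 2 with the array batch block and 0 to 574 with arrays left out (574 without HET replicate 1). The KO minus HET count of 2 became 0 with the median shift, with the mean of probe sets and with only the arrays compared, and 0 to 3 with arrays left out. The replicate block left Fxyd1 uncalled (KO minus WT -0.32, limma adjusted p = 0.0789) and changed no call of a member.

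Signs turned for differences that were called in neither fit. With the array batch block, KO minus WT was -0.22 for Atp1b1, 0.032 for Fxyd1, 0.080 for Fxyd5 and 0.61 for Fxyd6. HET minus WT was -0.19 for Atp1b1, 0.039 for Fxyd5 and 0.30 for Fxyd6, and KO minus HET was -0.032 for Atp1b1, 0.044 for Fxyd1 and 0.041 for Fxyd5. With the median shift, KO minus WT was 0.032 for Fxyd6, and KO minus HET was 0.035 for Atp1b2, 0.0055 for Fxyd1 and 0.073 for Fxyd5. With the mean of probe sets, HET minus WT was 0.0027 for Atp1b2 and KO minus HET was -0.085 for Atp1b1. With each array left out, KO minus WT spanned -0.17 to 0.073 for Fxyd5 and -0.11 to 0.10 for Fxyd6. HET minus WT spanned -0.042 to 0.17 for Atp1b1, -0.082 to 0.018 for Atp1b3, -0.16 to 0.035 for Fxyd5 and -0.32 to 0.14 for Fxyd6. KO minus HET spanned -0.032 to 0.18 for Atp1b1, -0.14 to 0.068 for Atp1b2, -0.14 to 0.044 for Fxyd1, -0.10 to 0.13 for Fxyd5 and -0.14 to 0.31 for Fxyd6. The cause was not tested. The precision is limited by 3 arrays a genotype, and Fxyd7 lay too near the bottom of the scale for any comparison.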
